A study of Mus musculus with 22 samples.

Results

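Heparan sulfate proteoglycans are proteins that carry long heparan sulfate chains. The 10 core genes described here encode those of the cell surface and matrix: the syndecans Sdc1, Sdc2, Sdc3 and Sdc4, the glypicans Gpc1, Gpc2, Gpc3, Gpc4 and Gpc6, and Hspg2, which encodes perlecan. They are defined by name, as every non-control probe of the array assigned to one of these genes, although the set was drawn up with earlier results of these data known. They are 10 of the 21336 named genes on the array and of the 16180 named genes that were bright enough to test. All 10 were tested, and the probe used for each was well above background on all 22 arrays. RNA came from forelimbs of mouse embryos of strain 129 at 13.5 days. The samples were 13 embryonic forelimb samples labelled Chsy-1 knockout and 9 labelled wild type. The labels used here do not give how the Chsy1 allele was made or whether 1 sample is 1 embryo or a pool, so each p-value covers no more than the variation among these samples.

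Chsy1 encodes an enzyme that builds chondroitin sulfate, the other main sulfated chain of limb proteoglycans. Both kinds of chain start on the same linker of sugars attached to a core protein, and the sugar added after that linker decides which chain is built. Syndecans cross the membrane and can carry both kinds of chain, whereas glypicans are held at the surface by a lipid anchor and carry heparan sulfate. Perlecan is a large secreted core of basement membranes and of cartilage matrix. Through their chains these proteins hold fibroblast growth factors, hedgehog, Wnt and bone morphogenetic proteins, the signals that pattern the limb and its cartilage. The comparison asks whether the genes for these cores were expressed differently in forelimbs without Chsy1.

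Each sample was labelled with Cy5 and set against 1 Cy3-labelled universal mouse reference RNA on a 2-colour array, and values are log2 ratios of Cy5 to Cy3 unless said otherwise. Per array, 27214 to 30599 of the 43379 non-control spots were well above background, and no such spot was saturated. Chsy1 had log2 ratios of -5.12, -4.73 and 0.15 (lowest, median and highest) in the arrays labelled knockout, against 1.28, 1.79 and 2.02 in wild-type arrays. The array labelled knockout 1 holds the value of 0.15 and so goes against its label, and several results are given without it as well. Wild-type 1 also stood apart: its median correlation with the other arrays across genes was 0.906, against 0.930 to 0.976 for the other 21 arrays. All arrays were scanned on 1 day and sat on 6 slides, each holding both genotypes. Positions on the slide were unbalanced. Knockout arrays filled positions 3 and 4 (6 and 4 arrays), and wild-type arrays filled position 1 (6 arrays). Only position 2 had both, 3 of each, and knockout 1 was 1 of those 3 knockout arrays. Values at position 2 or with position as a block therefore include knockout 1 and are not given without it. The forelimb label was checked with Tbx5, whose log2 ratio averaged 2.41 in knockout and 2.20 in wild-type arrays. The hindlimb genes were well above background on all 22 arrays too, with means in knockout and wild-type arrays of 5.45 and 5.64 for Pitx1, 2.08 and 1.71 for Isl1, and 0.71 and 0.61 for Tbx4, so these markers do not single out the forelimb.

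None of the 10 core genes differed between the genotypes past the threshold, an adjusted p of 0.05 in limma with Benjamini-Hochberg adjustment over 18642 genes and unnamed probes. Of all of these, 4 passed, which is 0.0215%, and all 4 were lower in knockout forelimbs. The smallest adjusted p among the core genes was 0.918. With unadjusted p under 0.05, as held for 5.33% of all genes, there were 2: Gpc4 and Sdc4, both with a lower mean in knockout forelimbs. Split by direction, 3.95% of all genes had such a p with a lower mean in knockout and 1.38% with a higher one. The mean was lower in knockout for 8 of the 10 and for 53.4% of all genes. The median difference of the 10, knockout minus wild type, was -0.06 on the log2 scale, against -0.007 over all genes.

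The intervals bound how large a difference could have gone unseen. For 10 of 10 core genes, as for 96.6% of all genes, the 95% interval of the difference lay within 1.5-fold either way. That bound held under all 39 other settings for Sdc4, Gpc4 and Gpc6 alone. When arrays were only centred on their median, which moved the median difference of all genes to 0.24, the intervals of the other 7 genes passed it, up to 0.77 on the log2 scale for Gpc2. With slide position as a block the intervals of Gpc2 (-1.36 to 0.33), Gpc3 (-0.66 to 0.64) and Hspg2 (-0.87 to 0.24) passed it. That of Gpc2 also reached 0.61 with slide as a block and 0.59 with a Y-linked covariate, and passed the bound in 7 of the fits without 1 array. The differences themselves ran from -0.20 for Sdc4 to 0.08 for Gpc2. In all 10 genes the values of the genotypes overlapped, whereas ranges that did not overlap were found for 0.00536% of all genes, which is Chsy1 alone. As these are bulk samples, fewer cells of a type and less RNA per cell cannot be told apart.

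**Figure D1:**
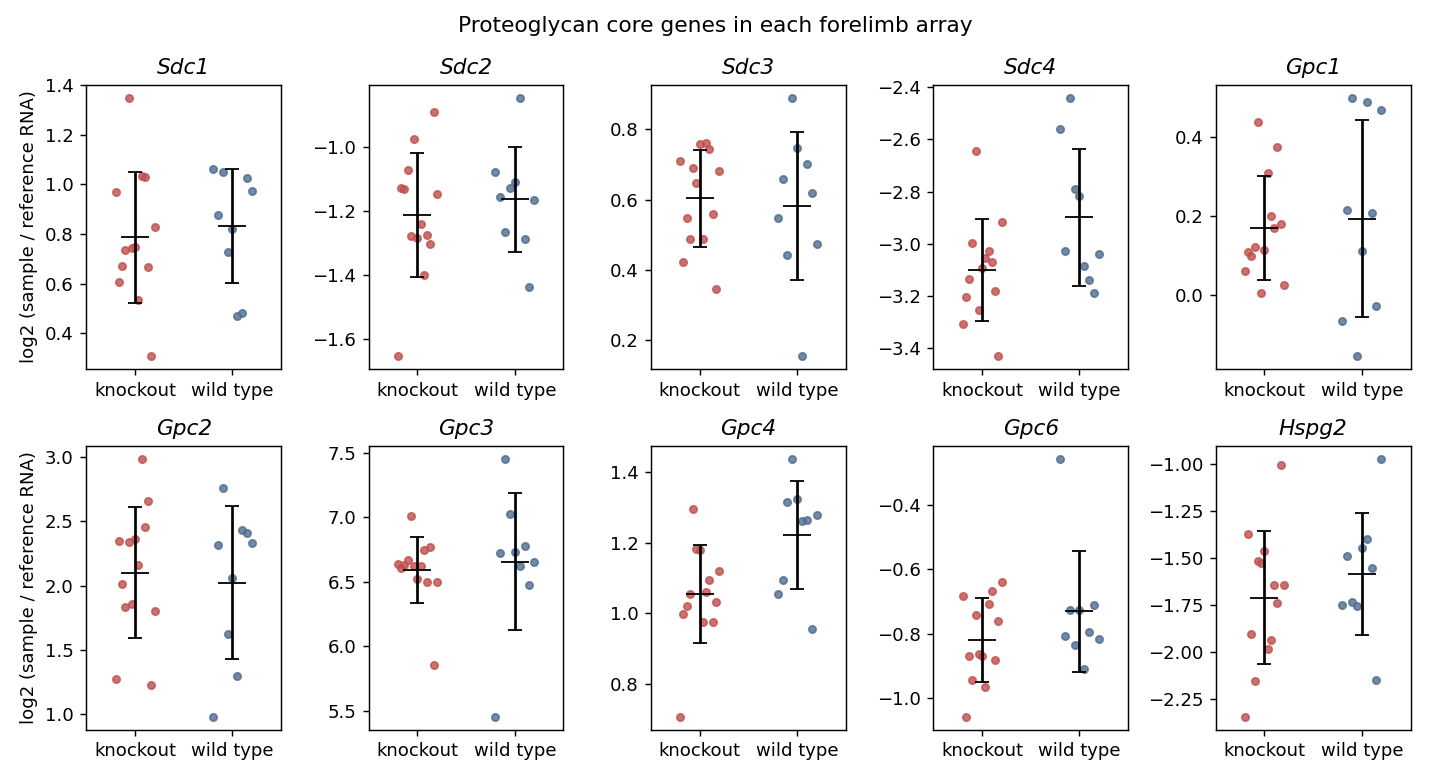
Log2 ratio of sample to reference RNA (vertical axis, one scale per gene) for each of the 10 core genes. Points are the 13 knockout arrays at the left of each panel and the 9 wild-type arrays at the right, and bars are the mean with its SD. The groups overlap in every panel, and Gpc2 has the widest scatter within both.

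Promoter sequence was taken from RefSeq on build GRCm38.p6, which held the 250 bases upstream of the start of 7 of the 10 genes. The motifs searched were the GC box GGGCGG, the letters that Sp-family factors are known to bind, and the TATA box TATAAA, each on both strands. A GC box stood in all 7 windows, from 1 in Gpc4 to 5 in Hspg2, against 32.7% of 32851 promoters of the same length. The TATA box letters stood in 0 of 7, against 12.4% of promoters. Only those exact letters were counted. The Sdc1 and Sdc4 windows below hold TATAAG near the start site, a form that was not searched for. The 7 windows were 66.0% to 76.4% G or C, against a median of 52.4% over all promoters, so the sets differ in base composition as well. Sdc1 and Sdc4 are shown because their values varied together across arrays, and Gpc3 because its ratio to the reference was the highest of the 10. Capitals mark GC boxes, read as GGGCGG or, on the other strand, CCGCCC, and each line runs 5′ to 3′ along the gene. The windows are chr12:8771146-8771395 on the plus strand for Sdc1, chr2:164443189-164443438 on the minus strand for Sdc4 and chrX:52613975-52614224 on the minus strand for Gpc3.
Sdc1: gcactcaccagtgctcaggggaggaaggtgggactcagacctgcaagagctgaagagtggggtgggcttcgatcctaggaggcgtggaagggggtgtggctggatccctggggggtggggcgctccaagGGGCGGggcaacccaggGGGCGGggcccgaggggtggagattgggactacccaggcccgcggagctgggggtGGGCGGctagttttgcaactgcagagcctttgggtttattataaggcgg
Sdc4: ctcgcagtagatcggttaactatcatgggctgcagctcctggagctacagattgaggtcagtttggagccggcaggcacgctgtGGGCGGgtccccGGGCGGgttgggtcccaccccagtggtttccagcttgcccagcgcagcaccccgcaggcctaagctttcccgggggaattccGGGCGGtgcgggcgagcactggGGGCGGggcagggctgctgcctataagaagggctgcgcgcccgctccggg
Gpc3: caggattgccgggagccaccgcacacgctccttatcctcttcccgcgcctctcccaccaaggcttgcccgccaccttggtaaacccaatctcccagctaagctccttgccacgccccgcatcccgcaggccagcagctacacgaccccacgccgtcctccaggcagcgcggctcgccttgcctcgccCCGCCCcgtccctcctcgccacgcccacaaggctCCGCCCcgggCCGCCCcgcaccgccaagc
Sdc1 has 3 boxes and Sdc4 has 4, all on the gene's own strand. The 3 of Gpc3 lie on the other strand, close to the start site. A match of letters is a description of the window and not evidence that a factor binds there.

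Among the syndecans, Sdc4 had the largest difference. Sdc4 sits at focal adhesions, where its cytoplasmic tail is known to bind protein kinase C alpha. Its probe (chromosome 2, 164115821 to 164115880; all probe positions are on mm8, as deposited, with no annotation of that build used here) had log2 ratios of -3.43, -3.09 and -2.64 (lowest, median and highest) in knockout arrays, against -3.19, -3.03 and -2.44 in wild-type arrays. The groups overlapped over most of their range, and 10 of 13 knockout values were under the median of the wild type. Gpc1 and Gpc3 gave that same count with differences of only -0.02 and -0.07. The Sdc4 means were -3.10 ± 0.19 (SD, n = 13) in knockout and -2.90 ± 0.26 (SD, n = 9) in wild type, a difference of -0.20 (SE 0.094, 95% interval -0.40 to -0.01; limma, unadjusted p = 0.0417, adjusted p = 0.918). Its other probe gave nearly the same difference, -0.23 (95% interval -0.45 to -0.01), from ratios of -1.15 in knockout and -0.91 in wild type. Within slides the Sdc4 difference ran from -0.60 to 0.19 and was negative on 4 of 6. At position 2, the only position holding both genotypes, it was -0.09. Leaving out both wild-type 1 and knockout 1, it was -0.14, and without wild-type 3, the highest of its group, it was -0.15.

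The other 3 syndecans had differences near 0. Sdc1, the syndecan of many epithelia and of condensing mesenchyme, was read by a probe on chromosome 12 (8818585 to 8818644). Its log2 ratios were 0.31, 0.74 and 1.35 in knockout arrays (lowest, median and highest), against 0.47, 0.88 and 1.06 in wild-type arrays. The knockout values reached further at both ends. The difference was -0.05 (SE 0.10, 95% interval -0.26 to 0.17), and with 1 array left out it ran from -0.093 without knockout 5 to -0.006 without knockout 12. Sdc2, known from fibroblasts and other mesenchymal cells, lies on chromosome 15 (probe at 32979038 to 32979097). It had -1.65, -1.24 and -0.89 in knockout arrays and -1.44, -1.15 and -0.85 in wild-type arrays. The groups covered nearly the same range, with a difference of -0.05 (SE 0.078) for the probe used and -0.13 for the other. Without knockout 1 the difference of the probe used was -0.01. Sdc3, the syndecan known from nerve and, in chick limbs, from early cartilage, lies on chromosome 4 (probe at 130098176 to 130098235). It had 0.35, 0.65 and 0.76 in knockout arrays and 0.15, 0.62 and 0.89 in wild-type arrays. Here the wild-type values reached further at both ends, and the difference was 0.02 (SE 0.074) for the probe used and -0.02 for another. A further Sdc3 probe was well above background on only 4 arrays and was not tested.

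Gpc4 had the smallest p of the 10 and ranked 329 of 18642. It encodes a glypican known to act in Wnt signalling, and lies beside Gpc3 on the X chromosome. Its probe (chromosome X, 48297838 to 48297897) had log2 ratios of 0.71, 1.06 and 1.30 (lowest, median and highest) in knockout arrays, against 0.96, 1.27 and 1.44 in wild-type arrays. The groups overlapped, but 12 of 13 knockout values were under the median of the wild type. The means were 1.05 ± 0.14 (SD, n = 13) in knockout and 1.22 ± 0.15 (SD, n = 9) in wild type, a difference of -0.17 (SE 0.065, 95% interval -0.30 to -0.03; limma, unadjusted p = 0.0167, adjusted p = 0.918). Its other probe, whose deviations followed the first only loosely (r = 0.390 over 22 arrays), gave -0.09 (95% interval -0.32 to 0.14). Within slides the difference was negative on 5 of 6, from -0.44 to 0.11, and at position 2 it was -0.26. It was -0.14 without knockout 1, the lowest array of its group, and -0.16 without both knockout 1 and wild-type 1. Across arrays Gpc4 varied with the surface ectoderm marker list (r = 0.72, 0.69 without wild-type 1) and the macrophage list (r = 0.72, 0.69 without it), all of whose genes, 5 and 5, were above background. The mean log2 ratio of the ectoderm list ran from 0.42 to 0.87 in knockout and from 0.48 to 1.05 in wild-type arrays, and that of the macrophage list from -0.38 to 0.19 in knockout and from -0.40 to 0.16 in wild-type arrays. Gpc4 also varied with the cartilage (r = 0.60, 0.61 without wild-type 1), skeletal muscle (0.59 and 0.55) and tendon lists (0.57 and 0.51). The means of the ectoderm, cartilage, muscle and tendon lists differed by -0.12, -0.15, -0.14 and -0.09, knockout minus wild type, with 5 of 5, 5 of 6, 5 of 6 and 2 of 4 genes lower, and that of the macrophage list by 0.004 with 2 of 5 lower. None of these markers was called, and their part in the Gpc4 difference was not tested.

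Gpc3 was the core gene most enriched in the forelimb over the reference RNA. It encodes a glypican that restrains hedgehog signalling, and its loss in humans causes an overgrowth syndrome. The log2 ratios of its probe (chromosome X, 48517190 to 48517249) were 5.86, 6.62 and 7.01 (lowest, median and highest) in knockout arrays, against 5.45, 6.72 and 7.45 in wild-type arrays. The knockout values lay inside the wild-type range. The mean ratio was 96.4-fold over the reference in knockout and 101-fold in wild type, rank 4 and rank 3 of all 18642 genes. The Cy3 reference signal behind this ratio was low, 121 to 199 units, though well above background on all 22 arrays. The size and rank of the fold thus rest on a faint reference signal. The Gpc3 difference was -0.07 (SE 0.16, 95% interval -0.39 to 0.26). A single array, wild-type 1 at 5.45, lay well under the other wild-type arrays, the next of which was at 6.47. Without wild-type 1 the difference was -0.22, and knockout 12, at 5.86, no longer lay inside the wild-type range. The difference was 0.03 without wild-type 3, the highest, and -0.005 without knockout 12. Its size and sign thus rested on single arrays of either genotype.

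Gpc2 varied most among arrays of a genotype. It encodes cerebroglycan, a glypican known from growing axons. Its probe (chromosome 5, 138503888 to 138503947) had log2 ratios of 1.23, 2.16 and 2.99 (lowest, median and highest) in knockout arrays, against 0.98, 2.31 and 2.76 in wild-type arrays. Both groups spanned nearly the same wide range. The residual SD was 0.54, larger than that of 98.6% of all genes, and the difference was 0.08 (SE 0.22, 95% interval -0.37 to 0.53). Within slides the difference ran from -1.003 to 1.198 and was positive on 5 of 6. At position 2, where knockout 1 (log2 ratio 1.27) was 1 of 3 knockout arrays, the difference was -0.51. It was 0.15 without knockout 1 and -0.05 without wild-type 1, and with 1 array left out it ran from -0.05 to 0.17. The Cy3 reference signal behind this ratio was faint, 69.0 to 92.5 units, and was well above background on 21 of the 22 arrays. The Cy5 signal was 348 to 1373 units in knockout and 241 to 1129 units in wild-type arrays. The median Cy5 background per array was 54 to 57 units.

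The remaining glypicans varied less than Gpc2 and Gpc3. The residual SD was 0.19 for Gpc1 and 0.16 for Gpc6, larger than that of 48.6% and 33.3% of all genes. Gpc1, the glypican of vessel walls and brain (chromosome 1, probe at 94690540 to 94690599), had 0.01, 0.12 and 0.44 in knockout arrays (lowest, median and highest log2 ratio) and -0.15, 0.21 and 0.50 in wild-type arrays. The knockout values lay inside the wild-type range, and the difference was -0.02 (SE 0.081). Gpc6, whose loss in humans shortens the limbs (chromosome 14, probe at 116847602 to 116847661), had -1.06, -0.86 and -0.64 in knockout arrays and -0.91, -0.79 and -0.26 in wild-type arrays. The upper end in wild type was wild-type 1, and the next wild-type array was at -0.71. The Gpc6 difference was -0.09 (SE 0.069, 95% interval -0.23 to 0.05), and -0.03 without wild-type 1. The Cy5 signal of this probe was low, 141 to 340 units over all arrays. The other Gpc6 probe gave ratios on the other side of 0, 0.11 in knockout and 0.14 in wild type, with a difference of -0.03, so the side of the reference on which Gpc6 falls depends on the probe. Both probes of Gpc5, the glypican outside the 10, were well above background on 0 arrays.

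Perlecan, without which cartilage forms but breaks down in mice, was read by 1 probe that the array design describes as perlecan mRNA (chromosome 4, 136842554 to 136842612). Hspg2 had log2 ratios of -2.34, -1.64 and -1.001 (lowest, median and highest) in knockout arrays, against -2.15, -1.55 and -0.97 in wild-type arrays. The groups covered nearly the same range. The difference was -0.13 (SE 0.14, 95% interval -0.42 to 0.16), and it was -0.32 at position 2 and -0.07 without knockout 1. Knockout 1, the lowest array of its group, was 1 of the 3 knockout arrays at position 2. The residual SD of Hspg2, 0.34, was larger than that of 88.7% of all genes.

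**Figure D2:**
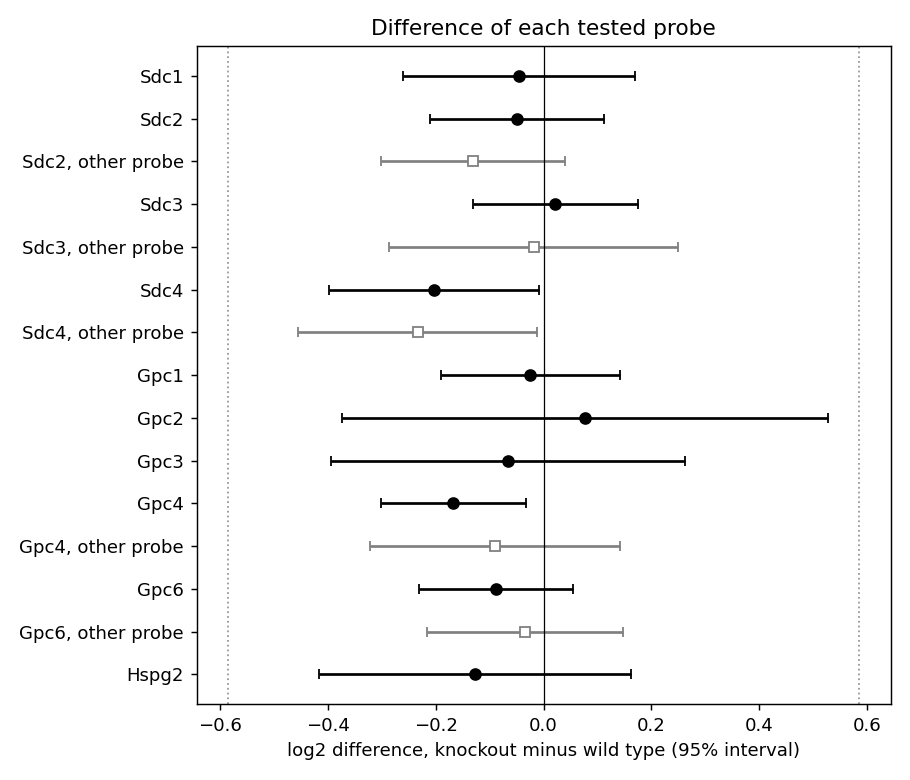
Difference in log2 ratio, knockout minus wild type, with its 95% interval for each tested probe of the 10 core genes. Filled points are the probe used for the gene, open squares are other tested probes, and dotted lines mark 1.5-fold. The intervals of Gpc4 (-0.30 to -0.03) and of both Sdc4 probes are those that exclude 0.

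Set against the reference RNA, 6 of the 10 core genes had a ratio above 0 in both genotypes and 4 had one below. After Gpc3 came Gpc2, 4.29-fold over the reference in knockout and 4.06-fold in wild type, and Gpc4, 2.08-fold over it in knockout and 2.33-fold in wild type. Sdc1, Sdc3 and Gpc1 lay between 1.12-fold and 1.78-fold over it. On the other side, Gpc6 was 1.76-fold under the reference in knockout and 1.66-fold in wild type, and Sdc2 was 2.32-fold under it in knockout and 2.24-fold in wild type. Hspg2 was 3.27-fold under it in knockout and 2.99-fold in wild type. The other Sdc2 probe lay below Hspg2, at log2 ratios of -2.23 in knockout and -2.10 in wild type, so their order depends on the probe. Sdc4 was furthest below the reference, 8.58-fold in knockout and 7.46-fold in wild type, although its other probe gave a log2 ratio much nearer to 0. These are ratios to a mixed reference and not levels, so they do not rank the genes by abundance. All arrays ran in 1 dye orientation, so the ratio and a dye effect of the probe cannot be told apart.

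The spread within a genotype was not shared evenly among arrays. Knockout 12 was at an end of its group for 7 of 10 genes, lowest for Sdc1, Sdc3, Sdc4, Gpc2 and Gpc3 and highest for Sdc2 and Hspg2. Knockout 5 was the highest of its group for 5 genes, and knockout 1 the lowest for Sdc2, Gpc4 and Hspg2. Among wild-type arrays, number 8 was lowest for Sdc2, Sdc4, Gpc4 and Hspg2, and number 3 was highest for Sdc4, Gpc1, Gpc2 and Gpc3. Wild-type 1 was at an end for 4 genes.

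**Figure D3:**
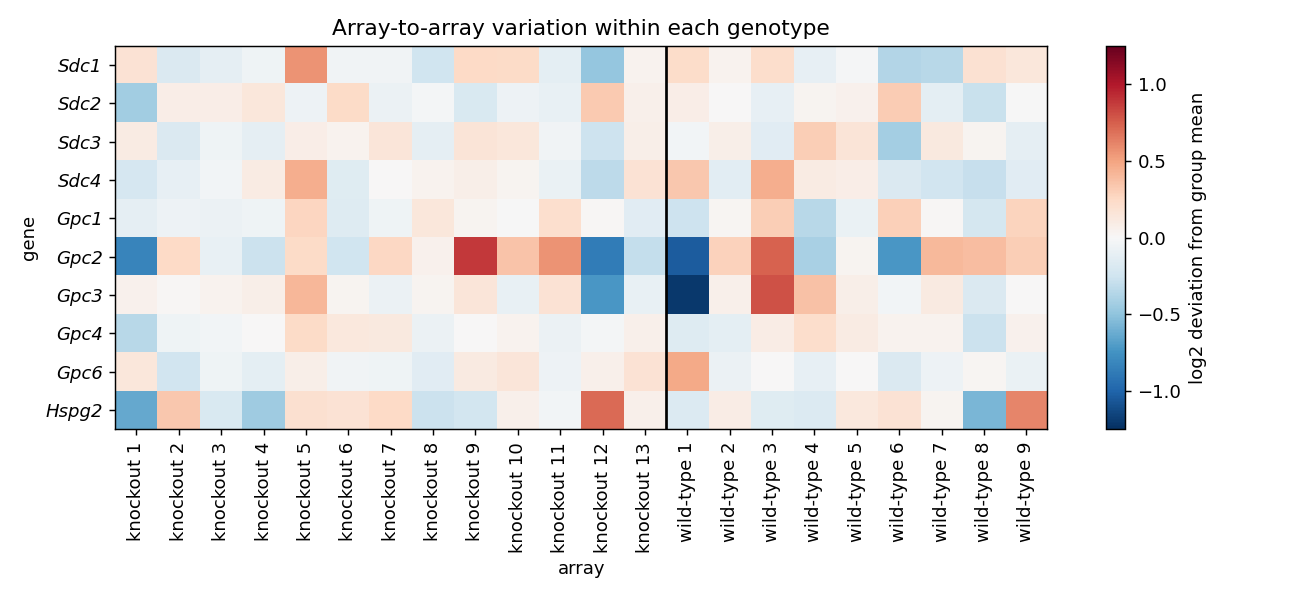
Deviation of each array from its genotype mean (colour, log2 scale) for the 10 core genes (rows), with knockout arrays left of the line and wild-type arrays right of it. Knockout 12 and wild-type 1 have strong colours in several rows, and the row of Gpc2 varies most.

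Some core genes deviated together across the 22 arrays. Given as descriptions, the 45 pairs had a median Pearson r of 0.18, with 28 positive and 17 negative, and all arrays share 1 reference RNA. Sdc1 and Sdc4 gave r = 0.59 (Spearman's rho 0.46) and 0.56 without wild-type 1, but 0.36 without the 2 arrays farthest from the median. Sdc1 and Gpc6 gave r = 0.53 (rho 0.66) and 0.68 without those 2 arrays. Sdc2 and Hspg2 gave r = 0.59 (rho 0.43), and 0.31 without the 2 farthest. Sdc2 gave r = -0.53 with Sdc1 and with Sdc3, but -0.04 with Sdc4. Gpc2 and Gpc3 had the highest r of all, 0.61, which was 0.46 without wild-type 1. Other pairs changed more when that array was left out: Sdc4 and Gpc3 gave r = 0.24 with it and 0.78 without it, and Gpc3 and Gpc6 gave -0.54 with it and -0.04 without it. Gpc3 and Gpc4, the neighbours on the X chromosome, gave 0.42.

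**Figure D4:**
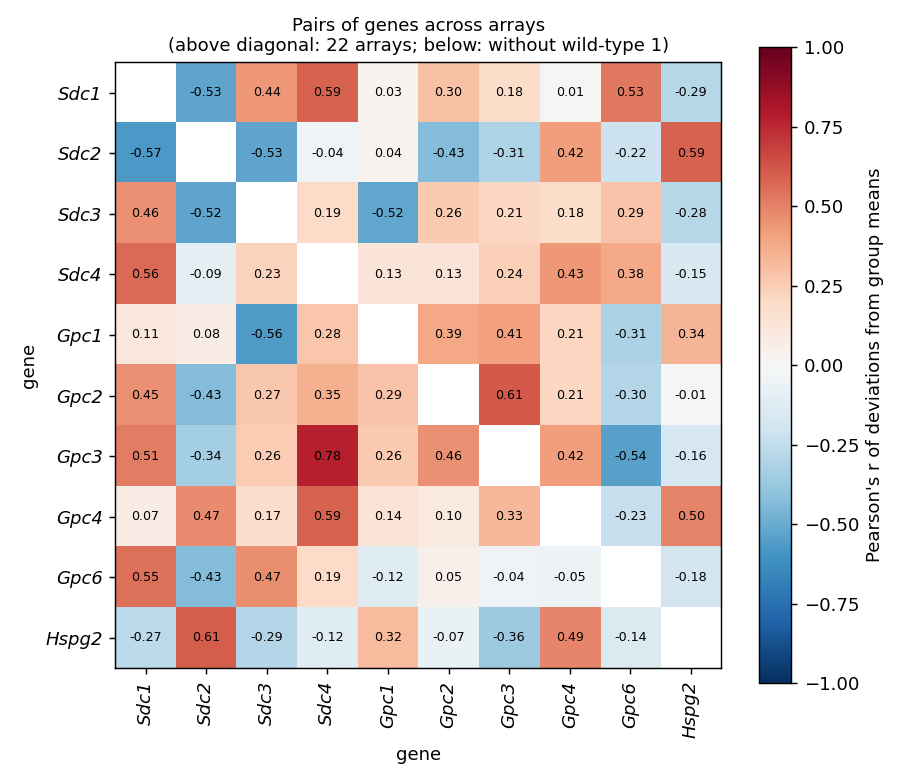
Pearson's r of deviations from the genotype means for each pair of the 10 core genes, over 22 arrays above the diagonal and over 21 arrays without wild-type 1 below it. Sdc1 and Sdc4 stay alike on both sides (0.59 and 0.56), whereas Sdc4 and Gpc3 differ (0.24 and 0.78).

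Sdc1 and Sdc2 also differed in how they followed the limb mesenchyme marker list (Prrx1, Prrx2, Tbx5, Twist1 and Msx1). Sdc1 varied with the list (r = 0.70, and 0.86 without wild-type 1) and Sdc2 against it (r = -0.61 with and without that array). This was not particular to Sdc1, since Gpc3 (0.71, and 0.69 without wild-type 1), Gpc2 (0.68 and 0.61) and Sdc4 (0.51 and 0.74) also varied with the list. Sdc1 varied with the erythroid list too (0.52 and 0.69). The mean log2 ratio of the mesenchyme list ran from 1.68 to 2.57 in knockout and from 1.65 to 2.58 in wild-type arrays, and all 5 genes were above background. Gpc3 varied with all 10 marker lists, from r = 0.46 for tendon to r = 0.81 for skeletal muscle. Without wild-type 1 the same 2 values were 0.16 and 0.69, and r was lower for all 10 lists. Hindlimb fell from 0.69 to 0.17, and Schwann and neural crest from 0.73 to 0.36. Surface ectoderm changed little, from 0.75 to 0.70. The part of tissue makeup in these relations was not tested.

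For the 3 core genes with the widest spread, the genes most like them across the 22 arrays were found by the Pearson r of deviations from the genotype means. Hspg2 was most like Gapvd1 (r = 0.923, rho 0.884), which encodes an endocytosis regulator, followed by Flt1 (0.897), a receptor for vascular endothelial growth factor, and Atf7ip (0.877), a chromatin regulator. Gpc3 was most like Wdr86 (r = 0.966, rho 0.775, and 0.926 without wild-type 1), Cpxm1 (0.954, rho 0.675) and Adcy4 (0.949, rho 0.546). Without wild-type 1 Adcy4 fell to 0.890, and Mpped2 (0.925) took its place among the closest 3. Gpc2 was most like Sh3bp2 (r = 0.816), Cacna1h (0.806) and Zfp612 (0.802). Without wild-type 1 Lrfn3 (0.778) took the place of Cacna1h (0.754). None of these genes differed between genotypes past the threshold.

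The machinery around the core proteins was read from gene lists in the same fit, and 0 genes of any of the 8 lists passed limma's threshold in either direction. At an unadjusted p under 0.05 there were 2 in the list of chain synthesis, 3 in that of chondroitin sulfate cores and 0 in the others, against 5.33% of all genes. A lower mean in knockout, counted for each list, was found for 53.4% of all genes. Of 21 genes that build and sulfate heparan sulfate, 17 were tested, 8 lower and 9 higher in knockout, with a median difference of 0.003. The 2 with the smallest p were Extl1 (-0.29, and -0.06 for its other probe) and Ext2, a subunit of the chain polymerase (-0.12). Of the genes that edit finished chains, 3 of 4 were tested: the difference was -0.20 for Hpse, heparanase, and 0.11 for Sulf2, a sulfatase that removes sulfate from them. All 7 linker enzyme genes were tested, with 5 lower and a median of -0.03. Xylt2, which adds the first sugar, had -0.08, and B4galt7, which adds the second, had -0.06. In addition, 2 other cores that carry heparan sulfate were measured, agrin (Agrn, 0.21, and 0.11 for its other probe) and collagen XVIII (Col18a1, 0.04, and 0.01 for its other probe).

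The list of cores that carry chondroitin sulfate, the chain Chsy1 builds, had 15 of 16 genes tested and 10 with a lower mean in knockout, with a median of -0.125. Epyc, the epiphycan of growth cartilage, had the lowest difference at -0.83 (SE 0.28; -0.70 for its other probe; limma, adjusted p = 0.908), and Cd44, the hyaluronan receptor, had -0.19 (-0.34 for its other probe). Proteins that bind syndecan tails gave 4 of 6 lower, with Prkca, protein kinase C alpha, at -0.19 and Sdcbp2 at -0.07. Secreted ligands that bind heparan sulfate in the limb gave 14 of 20 lower, with Hbegf at -0.19 and Slit2 at -0.15. A list of enzymes that shed or cut proteins gave 7 of 9 lower, with Mmp9 at -0.23. Furin (-0.06), Pcsk5 (-0.12) and Pcsk6 (-0.03), which cut precursor proteins, were among the 7. Notum, which in flies was first described as cutting glypicans and is now known as a Wnt deacylase, was at 0.07.

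Other ways of processing moved several of the differences across 0. When each array was only centred on its median instead of normalised by loess, the median of all genes shifted to 0.24, and 8 core genes turned from a lower to a higher mean in knockout. Relative to that shift, Gpc4 was at -0.07, Sdc4 at -0.12 and Gpc6 at -0.14, all still below it, and Hspg2 was at -0.02, while the other 6 genes lay between 0.03 and 0.10 above it. When slide position entered the fit as a block, Gpc2 was at -0.51 and Sdc3 at -0.038. The number of core genes past the threshold was 0 under all 39 other settings tried. Among these, quantile normalisation of intensities between arrays left the log2 ratios unchanged, so it only repeats the main setting.

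**Figure D5:**
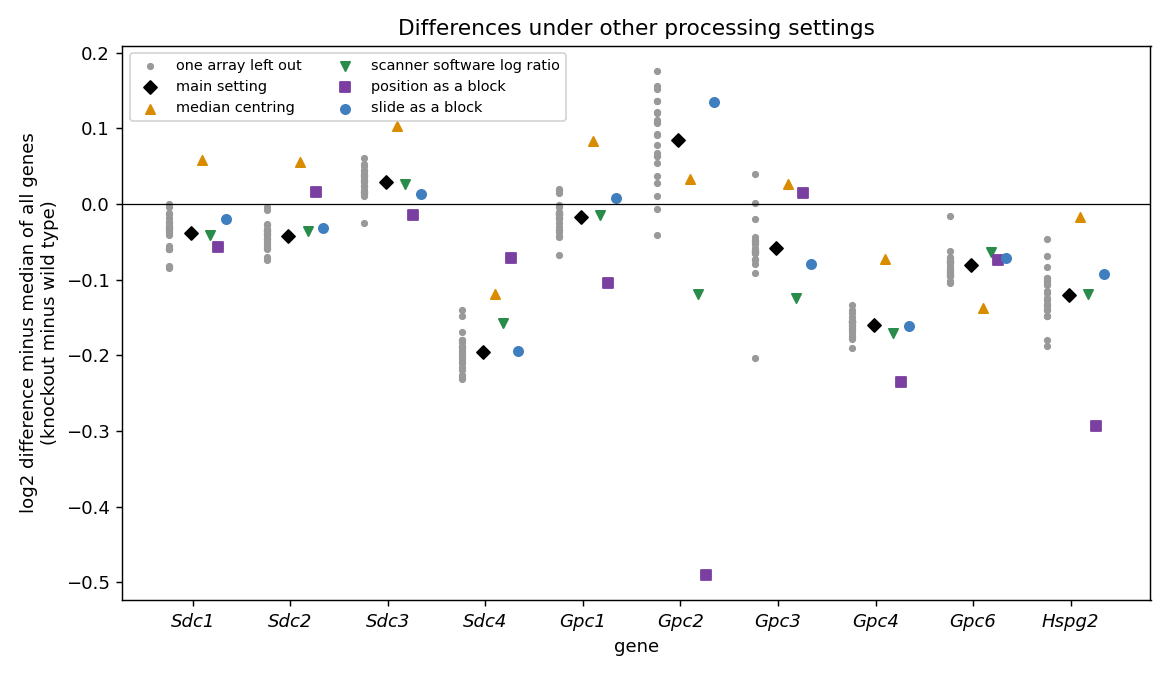
Difference, knockout minus wild type, less the median difference of all genes (vertical axis, log2) for each core gene under the main setting (black diamonds), 4 other settings (coloured) and with 1 array left out at a time (grey). Gpc2 moves most, to -0.51 before the median is taken off with position as a block. Gpc4, Sdc4, Gpc6 and Hspg2 stay below 0 in each setting drawn.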

How the data were processed

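The authors' scanner files give mean spot and background median intensities, made with Agilent Feature Extraction 9.5.3.1 per the file headers. Deposited flags mark outlier, saturated and well-above-background spots as 0 or 1. The deposited log10 ratio of Cy5 over Cy3, computed by that software per the file headers, served as an alternative, and the deposited value table held the same log10 ratios. Here intensities were corrected with normexp (offset 50) and normalised by loess within arrays, with control and outlier spots at weight 0, giving log2 ratios. Spots of 1 probe were averaged. Probes were kept for testing when 9 or more arrays had a Cy5 signal well above background, as held for 27803 of 41174, and a gene was represented by its tested probe of highest mean intensity. The difference between genotypes was estimated by limma (version 3.58.1, under R 4.3.3; functions lmFit and eBayes, all 22 arrays, no covariates), with Benjamini-Hochberg adjustment over 18642 genes and unnamed probes. The fit was tested on simulated data, but the outcome is not given here and no result rests on it. Precision is limited by the number of arrays. The Hspg2 probe was named from its deposited description. Named are the 10 core genes, Chsy1, the 2 members of each list with the smallest p, and cell type markers beside a result. So are Furin, Pcsk5, Pcsk6 and the 3 genes most like each of the 3 most variable core genes, with and without wild-type 1. The members and gene lists were chosen with earlier results of these data known. Alternatives changed the background correction, the normalisation, the signal, the probe filter and choice, blocks, weights and the arrays used. Promoters came from RefSeq.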

Additional observations from a re-analysis of the deposited data

Results flagged for a closer look

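In wild-type 1 the log2 ratio of Gpc3 was 5.45, far below the other 8 wild-type arrays, and that of Gpc6 was -0.26, far above them. Among 9 arrays both gaps, 0.510 and 0.695 of the group's range, exceeded Dixon's 95% critical value for 9 samples. Chance flags about 1 in 20 such groups, and 10 genes were looked at in wild type. Wild-type 1 also had the lowest mean of the wild-type arrays in every cell type marker list except limb mesenchyme, such as 1.06 for endothelium. Its Cy5 signals, 29591 units for Gpc3 and 206 units for Gpc6, lay within those of the other wild-type arrays. Whether these values belong to the genes or to the whole array was not tested.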

How the results depend on the processing

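The number of core genes past the threshold was 0 in all 39 alternatives, and the Chsy1 difference stayed between -7.02 and -4.66 (-6.49 to -6.05 with 1 array left out). Quantile normalisation between arrays, 1 of these alternatives, could not change the ratios. Over all genes, the count of 4 was 1 under median centring, the scanner software's ratio, the slide block, the position block and the Y-linked covariate, and 6 without background correction, and it ran from 2 to 6 with 1 array left out, with 2 without wild-type 2, 5 or 6. Leaving out wild-type 1 with knockout 1 gave 2, and knockout 12 as well gave 1, both chosen after seeing the data. Median centring turned Sdc1 to 0.30, Sdc2 to 0.29, Sdc4 to 0.12, Gpc1 to 0.32, Gpc3 to 0.26, Gpc4 to 0.17, Gpc6 to 0.10 and Hspg2 to 0.22, beside a median of all genes of 0.24. The scanner ratio turned Gpc2 to -0.12, the position block turned Gpc2 to -0.51 and Sdc3 to -0.038, and leaving out those 3 arrays turned Sdc1 to 0.0098. Leaving out 1 array gave ranges across 0 for Gpc1 (-0.068 to 0.014), Gpc2 (-0.053 to 0.17), Gpc3 (-0.22 to 0.034) and Sdc3 (-0.031 to 0.061). The cause was not tested. Replicate numbers did not pair the samples: same-numbered deviations correlated from -0.31 to 0.49, with 3 of 9 pairs above 0.1 and 2 of 9 closest to their own number. With the replicate block over numbers 1 to 9, 1 gene passed and Gpc3 was at 0.017. The faint reference signals of Gpc2 and Gpc3 limit their ratios.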
